A study of Mus musculus with 17 samples.

Results

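The 6 libraries described here hold Lgr5-marked hair follicle stem cells sorted from mouse epidermis, 3 labelled Pelo -/- and 3 labelled WT, out of 17 libraries in the series. The comparison takes every gene of the deposited count table that passed a filter on low counts, 20641 of 48820 identifiers, and a positive log2 fold change means a higher level in Pelo -/- Lgr5 cells. Pelo -/- libraries came from Pelo fl/fl mice with an EGFP-CreERT2 cassette at Lgr5, and WT libraries from Pelo fl/+ mice with that same cassette. All were C57BL/6 mice of 3 months that had received 4-OHT (4-hydroxytamoxifen), and the source is given as epidermis. Each library was made from 1000 GFP-positive cells, sorted by flow cytometry and sequenced after full-length cDNA amplification from low input (a protocol of Picelli et al., per the labels). The other 11 libraries are 6 of Lgr6-marked and 5 of Lrig1-marked cells, made in the same way.

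Lgr5 encodes a receptor for R-spondins, secreted proteins that raise Wnt signalling, and in resting skin it marks the lower bulge and hair germ, whose cells rebuild the follicle at the start of each growth phase. Pelo encodes the factor that, with its GTPase partner Hbs1l, enters the empty decoding site of a ribosome stalled on a messenger RNA and lets the subunits be split and reused. The comparison asks which transcripts differ between Lgr5 cells labelled as lacking Pelo and their controls.

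The model has limits that the labels themselves give. The controls are heterozygous for the floxed allele and carry the same Cre, so neither a Cre effect nor the loss of 1 Pelo allele is contrasted here, and the Lgr5 locus itself holds the reporter in both groups. Nothing in the labels ties each replicate to an animal of its own, and the p-values measure only the spread between these libraries, which may be technical in part. The Xist and Y-linked counts given below place more than 1 animal in each genotype. Whether libraries of the same sex pattern share an animal is not known. With bulk libraries, fewer cells of a kind and less RNA per cell cannot be told apart.

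Total counts were 17219054, 10501324 and 11769316 in the Pelo -/- Lgr5 libraries, against 11223457, 11261870 and 9647507 in the WT Lgr5 libraries. The Lgr5 libraries varied more than the others of the series, with a common dispersion in edgeR of 0.508, against 0.315 in the Lgr6 and 0.332 in the Lrig1 libraries, each fitted alone. Predicted genes of satellite-like sequence (Gm10800 and relatives) took 1.72% to 9.42% of the counts in Pelo -/- Lgr5 and 4.08% to 25.4% in WT Lgr5, and mitochondrial genes took 3.82% to 15.3% and 3.69% to 12.01%. In the Lgr6 and Lrig1 libraries total counts ran from 13333497 to 28098841, and Gm10800 and relatives took 0.237% to 2.83%. Pseudogenes took 8.18% to 22.5% in the Lgr5 libraries, against 20.6% to 27.45% in the others. The part of this unlike make-up in comparisons between populations was not tested. In each genotype replicate 3 had high Xist and almost no counts of most Y-linked genes, and replicates 1 and 2 had low Xist and high Y-linked counts. Xist counts were 80, 18 and 2581 in Pelo -/- Lgr5, against 254, 156 and 1879 in WT Lgr5. Ddx3y counts were 1810, 2426 and 0, against 1445, 2403 and 229. WT replicate 3 held 0 counts of the Y-linked genes Uty and Eif2s3y. The sex patterns were thus balanced, and the source of the mixed counts was not tested. Pelo -/- replicate 1 and WT replicate 3 lay at opposite ends of the first principal component, which held 37.2% of the variance.

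Pelo itself did not separate the genotypes. It stood at 16.8, 31.9 and 20.3 CPM (counts relative to the total of their library, with TMM factors over the 6 libraries) in Pelo -/- Lgr5 and at 23.2, 8.44 and 26.9 CPM in WT Lgr5. The groups overlapped, and the highest library was a Pelo -/- one (log2 fold change 0.24 ± 0.68 SE, edgeR adjusted p = 0.988, n = 3 each). The Pelo gene, chr13:115088355-115090186 on the minus strand (GRCm38, GENCODE M21), has 2 exons and sits whole inside an intron of Itga1, which runs the same way. Itga1, an integrin subunit that binds collagen, stood at 1.92, 7.29 and 2.96 CPM in Pelo -/- Lgr5, against 15.2, 0.642 and 4.60 CPM in WT Lgr5 (-0.75 ± 1.07). Counts are given per gene and not per exon, the deleted stretch is not given in the labels, and a transcript that lost its function can still be counted, so the level of Pelo tests neither label. Every direction below follows the labels. On a scale set over all 17 libraries Pelo stood at 11.8 to 23.6 CPM in Pelo -/- Lgr5 and 5.90 to 17.4 CPM in WT Lgr5, and at 0.483 to 6.05 CPM in the 11 libraries of Lgr6 and Lrig1 cells. The part of library make-up in this gap was not tested.

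The gene whose reporter was sorted was high in both genotypes. Lgr5 stood at 782, 632 and 640 CPM in Pelo -/- Lgr5, against 367, 816 and 567 CPM in WT Lgr5, with overlapping groups (0.23 ± 0.44). On the 17-library scale its levels of 467 to 550 CPM in Pelo -/- Lgr5 and 276 to 570 CPM in WT Lgr5 lay far above the 0.0531 to 29.4 CPM of the Lgr6 and Lrig1 libraries. All 19 markers of the bulge and lower follicle were tested. Their summed level was 31760, 28790 and 22490 CPM in Pelo -/- Lgr5, against 18840, 22910 and 22310 CPM in WT Lgr5. On the 17-library scale it was 16740 to 22320 CPM in Pelo -/- Lgr5 and 14150 to 16000 CPM in WT Lgr5. It ran from 9484 to 14340 CPM in the Lgr6 and Lrig1 libraries, which WT Lgr5 overlapped. Krt15, a keratin of bulge cells, stood at 9850, 7767 and 5496 CPM in Pelo -/- Lgr5, against 5216, 5913 and 4422 CPM in WT Lgr5. Cd34, a bulge surface protein, stood at 489, 445 and 492 CPM in Pelo -/- Lgr5, against 309, 278 and 414 CPM in WT Lgr5, with no overlap (0.51 ± 0.41). Lrig1 and Lgr6, receptors that mark the upper follicle and isthmus, gave -0.26 ± 0.65 and 0.09 ± 0.59. On the 17-library scale Lgr6 stood at 17.7 to 108 CPM in the Lgr5 libraries, against 58.3 to 197 CPM in the Lgr6 and Lrig1 libraries. Lrig1 stood at 10.1 to 18.1 CPM, against 7.42 to 60.0 CPM.

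Markers of interfollicular keratinocytes, which bulge cells share in part, summed to 17330, 13000 and 9890 CPM in Pelo -/- Lgr5, against 8909, 10560 and 7391 CPM in WT Lgr5, with 9 of 11 higher in value. Markers of cells outside the epithelium were low, and some differed between the groups in value. The 14 markers of melanocytes, the pigment cells of the follicle, summed to 493, 240 and 218 CPM in Pelo -/- Lgr5, against 106, 201 and 187 CPM in WT Lgr5. No melanocyte marker was at 0 in any library, 10 of the 13 tested were higher in value in Pelo -/- and 3 lower (median 0.51, and -0.01 without Pelo -/- replicate 1). Tyr, the first enzyme of melanin synthesis, stood at 4.76, 9.69 and 5.34 CPM in Pelo -/- Lgr5, against 0.360, 0.459 and 1.28 CPM in WT Lgr5. T cell markers summed to 147, 44.1 and 23.1 CPM in Pelo -/- Lgr5, against 45.9, 35.2 and 45.1 CPM in WT Lgr5, so that Pelo -/- replicate 1 stood apart. Fibroblast and papilla markers summed to between 223 and 335 CPM in Pelo -/- Lgr5, against between 142 and 209 CPM in WT Lgr5 (scaled over all 17 libraries), with no overlap. Of the 14 tested, 7 were higher in value, and Sparc, the 1 at an unadjusted p under 0.05, made up the largest part of the sum. Endothelial markers summed to 32.9, 37.6 and 41.0 CPM in Pelo -/- Lgr5, against 59.8, 39.3 and 84.1 CPM in WT Lgr5. The part of these cells in the results below was not tested.

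No gene passed the test. In edgeR's quasi-likelihood test on the 6 libraries, 0 of 20641 genes (0.0%) reached a Benjamini-Hochberg adjusted p under 0.05, the smallest being 0.988. At an unadjusted p under 0.05 there were 643 genes (3.12%), 340 higher (1.65%) and 303 lower (1.47%) in Pelo -/-, where 1032 would be expected if nothing differed. The 3 Pelo -/- libraries all lay above the 3 WT libraries for 891 genes (4.32%) and all below for 898 (4.35%). DESeq2 called 44 genes (0.213%), 24 of them higher and 20 lower. A fit that shared its spread with all 17 libraries called 6 (0.0197%), all higher, and limma-voom with quality weights called 0. The typical standard error of a log2 fold change was 0.881 (median over all genes tested) and 0.644 for the 9976 genes with a mean level of at least 3 on the log2 CPM scale. The values below therefore describe these 6 libraries, and genes are called higher or lower in value without passing the test.

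**Figure D1:**
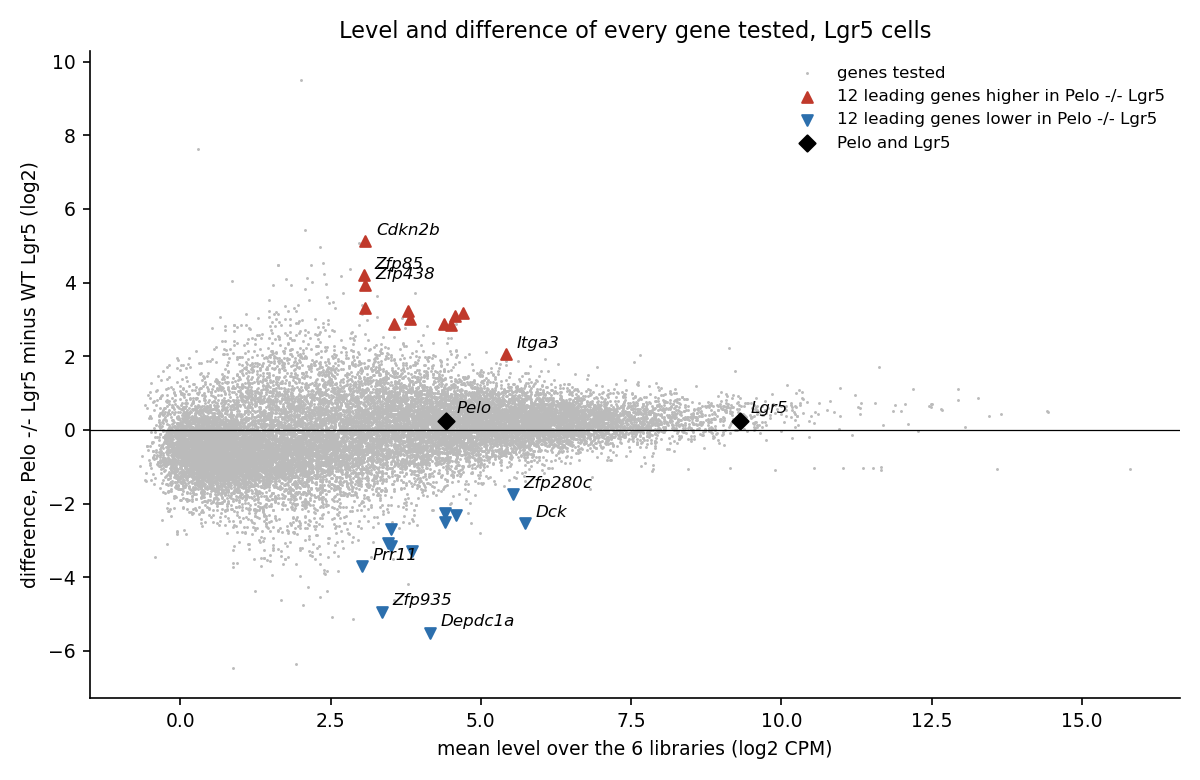
Mean level over the 6 Lgr5 libraries (log2 CPM, horizontal) against the difference Pelo -/- Lgr5 minus WT Lgr5 (log2, vertical) for each of the 20641 genes tested, with the 12 leading genes of each direction as triangles and Pelo and Lgr5 as diamonds. The cloud tilts, since genes under a mean log2 CPM of 2 had a median difference of -0.53 and those of 8 or more a median of 0.37, and Pelo and Lgr5 both lie inside it near 0.

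Differences drifted with the level of a gene. The median log2 fold change was -0.08 over all genes tested, with 46.2% of them above 0. It was -0.53 for 7987 genes with a mean log2 CPM under 2, -0.05 for the 5168 between 2 and 4, 0.21 for the 4662 between 4 and 6, and 0.27 for the 2824 of 6 or more. Lists of abundant genes are to be read against the last of these values, and lists of scarce genes against the first. Counts of list members at an unadjusted p under 0.05 are to be read against 1.65% of all genes higher and 1.47% lower.

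The 12 leading genes higher in value in Pelo -/- Lgr5 (smallest p among protein-coding genes of sufficient level whose groups did not overlap) were led by Cdkn2b. Cdkn2b encodes p15, an inhibitor of the cyclin D kinases CDK4 and CDK6, and is a known target of TGF-beta signalling. It stood at 12.8, 25.03 and 10.5 CPM in Pelo -/- Lgr5, against 0.450, 0.642 and 0.255 CPM in WT Lgr5 (5.13 ± 1.00, unadjusted p = 0.000154, edgeR adjusted p = 0.988). The groups stood far apart, and it passed in DESeq2 (adjusted p = 8.93e-07) and in the 17-library fit (adjusted p = 0.0366). All 3 WT Lgr5 values lay under 1 CPM, so the size of the fold change rests on few WT counts. On the 17-library scale its mean was 11.8 ± 5.88 CPM in Pelo -/- Lgr5 and 0.317 ± 0.144 CPM in WT Lgr5 (SD, n = 3 each), while the 11 Lgr6 and Lrig1 libraries ran from 2.50 to 13.5 CPM. All 3 WT Lgr5 libraries lay under that range, and 1 Pelo -/- Lgr5 library lay above it.

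Itga3, the alpha3 integrin subunit with which basal keratinocytes hold laminin-332, stood at 55.4, 85.8 and 64.6 CPM in Pelo -/- Lgr5, against 16.3, 19.0 and 14.0 CPM in WT Lgr5 (2.06 ± 0.52). The spread within each group was small beside the gap between them. Mtrr, the reductase that reactivates methionine synthase, stood at 25.7, 16.7 and 31.2 CPM in Pelo -/- Lgr5, against 1.44, 2.66 and 3.75 CPM in WT Lgr5 (3.23 ± 0.81). Both passed in the 17-library fit (adjusted p = 0.0457 and 0.017), and of this pair Mtrr alone in DESeq2 (adjusted p = 0.00153). Tm4sf1, a membrane protein of the tetraspanin-like L6 family, stood at 14.6, 19.4 and 10.8 CPM in Pelo -/- Lgr5, against 2.43, 1.10 and 0.937 CPM in WT Lgr5 (3.32 ± 0.90). Clic3, a member of the chloride intracellular channel family, stood at 28.4, 16.2 and 16.2 CPM in Pelo -/- Lgr5, against 2.79, 3.67 and 1.79 CPM in WT Lgr5 (2.88 ± 0.81).

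Sdhaf3, an assembly factor of succinate dehydrogenase, stood at 15.2, 40.8 and 53.6 CPM in Pelo -/- Lgr5, against 2.34, 8.99 and 3.49 CPM in WT Lgr5 (2.88 ± 0.80). Rpl29, a protein of the large ribosomal subunit with many processed pseudogenes that can share its reads, stood at 97.9, 13.9 and 15 CPM in Pelo -/- Lgr5, against 3.33, 7.06 and 4.51 CPM in WT Lgr5 (3.09 ± 0.86). Pelo -/- replicate 1 carried most of its mean, and without it the value for Rpl29 was 1.55. Ttc30b, a part of the intraflagellar transport machinery of cilia, stood at 47.8, 25.6 and 45.4 CPM in Pelo -/- Lgr5, against 11.97, 3.03 and 1.53 CPM in WT Lgr5 (2.84 ± 0.82). The other four were Smim26, a small mitochondrial protein (3.17 ± 0.81), and the zinc finger genes Zfp85 (4.20 ± 0.99), Zfp438 (3.93 ± 1.00) and Zfp850 (3.01 ± 0.84). In 10 of these 12 genes the Pelo -/- Lgr5 mean was nearer than the WT Lgr5 mean to the median of the 11 Lgr6 and Lrig1 libraries, which is a description of genes chosen by their difference.

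**Figure D2:**
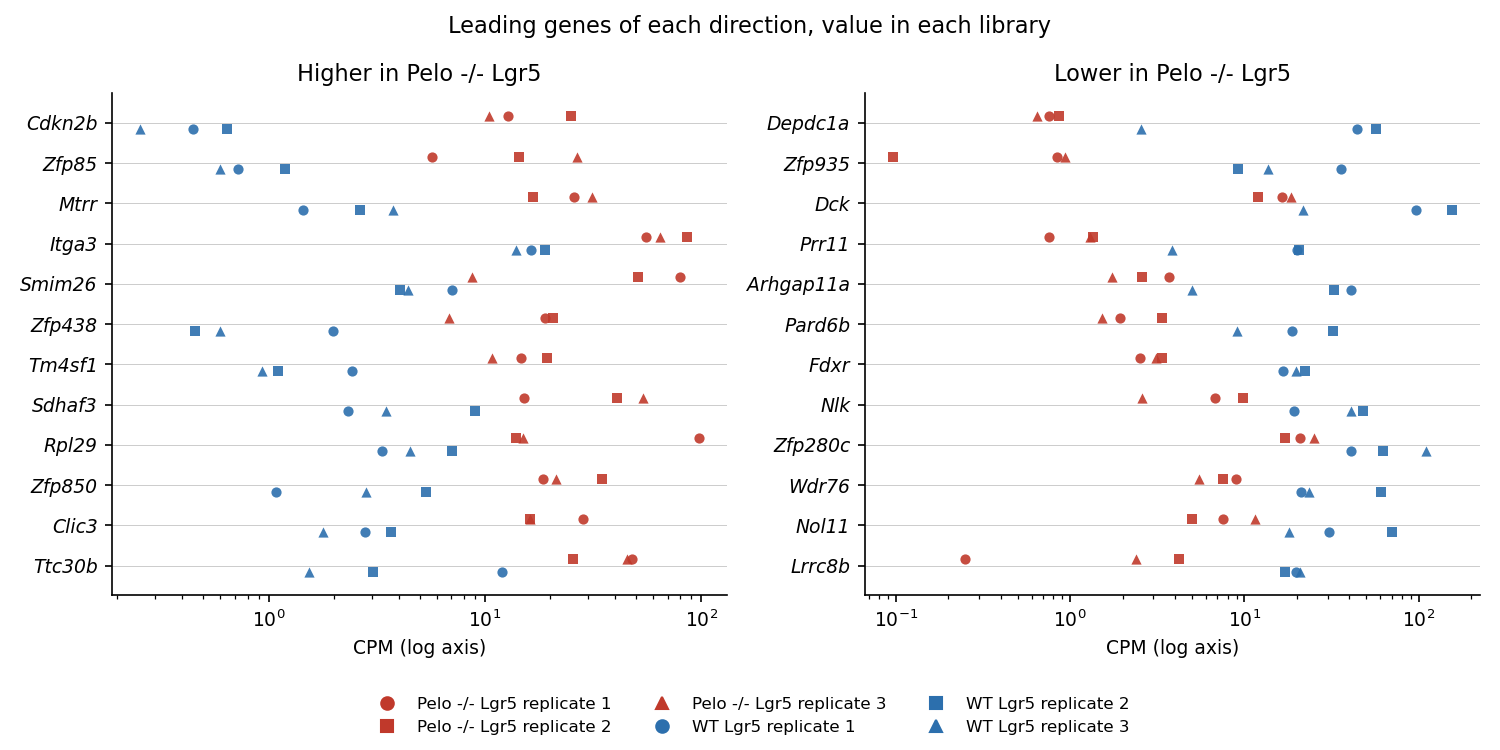
CPM on a log axis (horizontal) of the 12 leading genes of each direction, with 1 point per library, Pelo -/- Lgr5 in red above WT Lgr5 in blue for each gene and the marker shape giving the replicate number. The groups do not overlap, which the choice of genes required, and WT replicate 3 lies close to the Pelo -/- values for Depdc1a, Dck, Prr11 and Arhgap11a.

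Among the 12 leading genes lower in value, several belong to cell division and DNA synthesis. Depdc1a, a mitotic protein of dividing cells, stood at 0.751, 0.863 and 0.649 CPM in Pelo -/- Lgr5, against 44.5, 56.8 and 2.55 CPM in WT Lgr5 (-5.50 ± 1.09, unadjusted p = 0.000184, edgeR adjusted p = 0.988). Prr11, which acts in cell cycle progression, stood at 0.751, 1.34 and 1.30 CPM in Pelo -/- Lgr5, against 20.0, 20.6 and 3.83 CPM in WT Lgr5 (-3.70 ± 0.98). Arhgap11a, a GTPase-activating protein of cytokinesis, stood at 3.67, 2.59 and 1.73 CPM in Pelo -/- Lgr5, against 40.7, 32.5 and 5.02 CPM in WT Lgr5 (-3.29 ± 0.91). For all 3 of these genes WT replicate 3 lay much nearer to the Pelo -/- libraries than WT replicates 1 and 2 did, and without it Depdc1a gave -6.05.

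Dck, the kinase that salvages deoxycytidine for DNA synthesis, stood at 16.4, 11.9 and 18.5 CPM in Pelo -/- Lgr5, against 95.9, 155 and 21.7 CPM in WT Lgr5 (-2.54 ± 0.66). It showed a similar split among the WT libraries. Fdxr, the mitochondrial reductase that feeds electrons to ferredoxins and a known p53 target, stood at 2.50, 3.36 and 3.10 CPM in Pelo -/- Lgr5, against 16.6, 22.2 and 19.7 CPM in WT Lgr5 (-2.70 ± 0.78). Here the 3 libraries of each group stood close together. Lrrc8b, a subunit of volume-regulated anion channels, stood at 0.250, 4.22 and 2.38 CPM in Pelo -/- Lgr5, against 19.8, 17.1 and 20.9 CPM in WT Lgr5 (-3.07 ± 0.98). Nlk, a kinase that acts on Tcf and Notch pathway factors, stood at 6.76, 9.78 and 2.60 CPM in Pelo -/- Lgr5, against 19.3, 47.8 and 40.8 CPM in WT Lgr5 (-2.49 ± 0.74). Both were low in every Pelo -/- library.

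Pard6b, a polarity protein that works with atypical protein kinase C, gave -3.14 ± 0.87. Wdr76, a DNA damage-associated protein, gave -2.26 ± 0.70, Nol11, a factor of ribosomal RNA transcription and processing, -2.30 ± 0.72, and the zinc finger genes Zfp935 and Zfp280c -4.93 ± 1.08 and -1.75 ± 0.54. In 2 of these 12 genes the Pelo -/- Lgr5 mean was the one nearer to the median of the other 11 libraries.

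Immediate early genes had the highest median difference of the 43 lists. They encode transcription factors, phosphatases and other proteins whose transcripts appear within minutes of a growth factor, a stress or tissue dissociation. Among them are the AP-1 genes of the Fos and Jun families. All 30 on the list were tested, and 27 were higher and 3 lower in value in Pelo -/-. At an unadjusted p under 0.05 there were 16 higher and 0 lower, against 1.65% and 1.47% of all genes, and none passed after adjustment over all genes. The 3 Pelo -/- libraries lay above the WT libraries for 10 of them (4.32% of all genes) and below for 1, Egr3 (4.35% of all genes). Their median log2 fold change was 1.27, against -0.08 for all genes and 0.27 for genes with a mean log2 CPM of 6 or more.

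Fos, an AP-1 subunit and the member with the most counts, stood at 7859, 4693 and 1901 CPM in Pelo -/- Lgr5, against 1739, 1927 and 769 CPM in WT Lgr5 (1.70 ± 0.60, unadjusted p = 0.0135, edgeR adjusted p = 0.988). Replicates 1 and 2 of Pelo -/- lay above all WT libraries, while replicate 3 lay just under the highest WT value. Egr1, a zinc finger factor induced by serum, stood at 1668, 893 and 191 CPM in Pelo -/- Lgr5, against 222, 256 and 111 CPM in WT Lgr5 (2.22 ± 0.66). Atf3, a stress-induced partner of Jun, stood at 536, 346 and 88.1 CPM in Pelo -/- Lgr5, against 61.4, 135 and 40.7 CPM in WT Lgr5 (2.04 ± 0.63). In both genes Pelo -/- replicate 3 lay within the WT range. Dusp1, the phosphatase that switches off MAP kinases, stood at 1501, 828 and 354 CPM in Pelo -/- Lgr5, against 407, 294 and 192 CPM in WT Lgr5 (1.59 ± 0.55).

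In other members, among them the AP-1 subunits Fosb and Junb, the groups did not overlap. Fosb stood at 502, 224 and 151 CPM in Pelo -/- Lgr5, against 103, 118 and 22.99 CPM in WT Lgr5 (1.85 ± 0.62). Junb stood at 118, 52.4 and 29.4 CPM in Pelo -/- Lgr5, against 26.01, 19.8 and 8.51 CPM in WT Lgr5 (1.88 ± 0.65). Nr4a1, an orphan nuclear receptor, stood at 244, 110 and 66.3 CPM in Pelo -/- Lgr5, against 38.0, 56.6 and 53.6 CPM in WT Lgr5 (1.51 ± 0.52). In all 3 Pelo -/- replicate 1 was the highest and replicate 3 the lowest of its group. Klf4, a factor of epidermal barrier formation, stood at 2381, 1479 and 1257 CPM in Pelo -/- Lgr5, against 787, 638 and 992 CPM in WT Lgr5 (1.08 ± 0.46). Zfp36, which binds AU-rich messages for decay, stood at 418, 145 and 160 CPM in Pelo -/- Lgr5, against 108, 109 and 66.2 CPM in WT Lgr5 (1.35 ± 0.50).

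**Figure D3:**
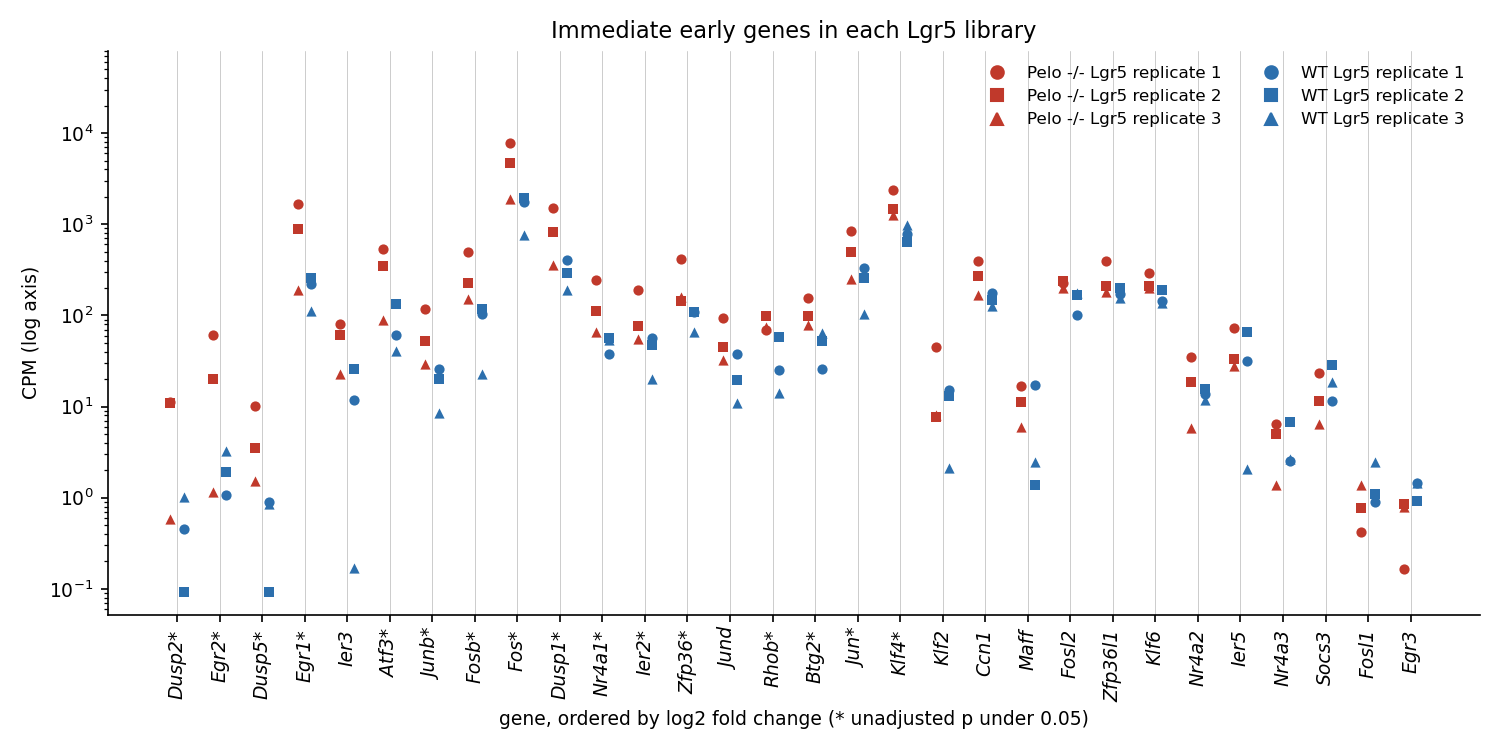
CPM on a log axis of each of the 30 immediate early genes in each Lgr5 library, Pelo -/- in red left of WT in blue, ordered by log2 fold change, with an asterisk for an unadjusted p under 0.05. Pelo -/- replicate 1 (red circles) is the highest library for most genes, and the 3 genes at the right end are lower in value in Pelo -/-.

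The size of this group difference rested in part on Pelo -/- replicate 1. Summed over the list, the level was 18250, 10700 and 5520 CPM in Pelo -/- Lgr5, against 4670, 4859 and 3112 CPM in WT Lgr5, so the sums did not overlap. Without Pelo -/- replicate 1 the number at an unadjusted p under 0.05 was 3 (median 0.74), and without WT replicate 3 it was 10 (median 1.02). With both left out it was 1 of 29 (median 0.48), and with any other single library left out it lay between 13 and 18. The order of the sums within each genotype followed that of the mitochondrial share, which was 15.3%, 7.18% and 3.82% in Pelo -/- and 12.01%, 6.15% and 3.69% in WT, apart from WT replicates 1 and 2, and the part of RNA quality in the difference was not tested. Pelo -/- replicate 1 also had the highest sums of melanocyte and T cell markers, whose part was not tested either. Without it Fos gave 1.16, Egr1 1.48, Fosb 1.21, Junb 1.18, Nr4a1 0.87, Dusp1 1.01 and Zfp36 0.70.

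The promoters of 4 of these genes, the 3 members of smallest p with groups that did not overlap and Fos as the one with the most counts, are given to show the elements that such genes share. The windows run from 250 bases before to 50 after the annotated start (RefSeq, GRCm38.p6), 5′ to 3′ on the strand of the gene. Capitals mark each TGACG or its reverse complement CGTCA, the half-site of the cAMP response element TGACGTCA, searched on both strands; the half-site was added to the search after the windows had been read.

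Fosb (chr7:19309996-19310295, minus strand): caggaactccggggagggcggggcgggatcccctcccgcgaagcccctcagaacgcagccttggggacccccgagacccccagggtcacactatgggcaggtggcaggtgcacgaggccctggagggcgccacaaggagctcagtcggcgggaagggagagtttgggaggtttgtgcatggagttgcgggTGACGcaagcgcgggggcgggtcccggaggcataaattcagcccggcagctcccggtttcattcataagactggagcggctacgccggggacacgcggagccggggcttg

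Junb (chr8:84978699-84978998, minus strand): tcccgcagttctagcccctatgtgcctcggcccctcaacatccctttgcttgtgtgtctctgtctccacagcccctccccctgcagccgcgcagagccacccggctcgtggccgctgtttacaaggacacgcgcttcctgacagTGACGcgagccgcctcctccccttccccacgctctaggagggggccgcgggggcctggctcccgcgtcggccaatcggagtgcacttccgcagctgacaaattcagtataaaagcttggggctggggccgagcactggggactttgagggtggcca

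Nr4a1 (chr15:101266596-101266895, plus strand): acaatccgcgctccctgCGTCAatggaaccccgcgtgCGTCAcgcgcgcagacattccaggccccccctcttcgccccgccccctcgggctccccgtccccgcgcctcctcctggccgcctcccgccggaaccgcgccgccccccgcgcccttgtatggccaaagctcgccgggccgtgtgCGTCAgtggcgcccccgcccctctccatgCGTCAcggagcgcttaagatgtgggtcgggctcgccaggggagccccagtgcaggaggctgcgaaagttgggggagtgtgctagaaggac

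Fos (chr12:85473640-85473939, plus strand): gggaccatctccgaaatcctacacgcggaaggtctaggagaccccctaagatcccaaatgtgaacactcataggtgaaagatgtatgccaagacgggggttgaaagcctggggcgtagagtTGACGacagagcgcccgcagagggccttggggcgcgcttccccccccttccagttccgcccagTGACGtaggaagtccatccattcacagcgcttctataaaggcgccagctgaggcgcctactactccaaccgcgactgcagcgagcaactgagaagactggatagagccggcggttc

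Fosb and Junb each held 1 half-site, Fos 2 and Nr4a1 4, and none of the 4 windows held the full element. A half-site was found for 16 of the 26 list members with a window, against 6228 of 27025 genes searched over windows of the same length, and the full element for 3 of the 26, against 549 (2.03%) of those genes. The CArG box, the site of serum response factor, was found for 3 of the 26, against 488 (1.81%). A gene with several windows was counted once, and Egr2 had 5 and Maff 3. Among the 14 members with a window and an unadjusted p under 0.05, 11 held a half-site, against 5 of the other 12. Fosb, Junb, Nr4a1 and Fos are among those 11, and the half-site was chosen after their windows had been read. The half-site counts therefore test no link with the difference in level. These matches describe the letters of the windows only.

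The genes of cell division lay mostly on the other side of 0. Of 40 genes of G2 and mitosis, 33 were lower and 7 higher in value in Pelo -/- (median -0.72), with 4 lower and 0 higher at an unadjusted p under 0.05, and none passed. Their sums were 1190, 528 and 351 CPM in Pelo -/- Lgr5, against 1339, 1881 and 277 CPM in WT Lgr5, so WT replicate 3 was the lowest of all and the groups overlapped. Bub1, a kinase of the spindle checkpoint, stood at 1.34, 7.19 and 4.47 CPM in Pelo -/- Lgr5, against 19.1, 56.8 and 1.62 CPM in WT Lgr5 (-2.57 ± 1.08, and -1.23 without WT replicate 2). Kif11, the motor that separates spindle poles, stood at 18.4, 5.37 and 3.82 CPM in Pelo -/- Lgr5, against 43.6, 56.4 and 8.26 CPM in WT Lgr5 (-1.97 ± 0.84). Nusap1, a spindle protein, gave -1.75 ± 0.80 and Racgap1, a cytokinesis factor and the one member of the 4 whose groups did not overlap, -1.46 ± 0.68. Mki67, the common marker of cycling cells, stood at 114, 43.8 and 16.01 CPM in Pelo -/- Lgr5, against 89.3, 201 and 6.90 CPM in WT Lgr5, and did not separate the groups.

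This count too depended on single libraries. It was 9 lower without Pelo -/- replicate 1, 8 without WT replicate 3, and 0 lower and 1 higher without WT replicate 2 (median -0.32). With any other library left out it was 1 lower (medians -0.62 to -0.35). With both Pelo -/- replicate 1 and WT replicate 3 left out, 23 of the 40 genes were lower at an unadjusted p under 0.05 (median -2.20), against 4.12% of all genes in either direction. The choice of these libraries was made after seeing the data. They held the highest Pelo -/- sum and the lowest WT sum of this list, so leaving them out widens the gap by construction. Of 40 tested genes of S phase, 30 were lower and 10 higher in value (median -0.30, -0.04 without Pelo -/- replicate 3 and 0.16 without WT replicate 2), with none at an unadjusted p under 0.05. Rrm2, the ribonucleotide reductase subunit that makes deoxynucleotides, stood at 43.5, 32.0 and 7.28 CPM in Pelo -/- Lgr5, against 61.1, 124 and 18.0 CPM in WT Lgr5, and gave -0.46 without WT replicate 2.

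Of 28 inhibitors of the cell cycle and p53 targets, 20 were higher in value (median 0.37, and 0.59 without WT replicate 2), where 63.4% of genes with a mean log2 CPM between 4 and 6 lay above 0 with a median of 0.21. In all 3 libraries 7 lay above and 1 below (4.32% and 4.35% of all genes), and 2 were higher at an unadjusted p under 0.05. Beside Cdkn2b, Btg2, an antiproliferative cofactor of deadenylation, stood at 156, 98.98 and 78.8 CPM in Pelo -/- Lgr5, against 25.6, 52.9 and 64.9 CPM in WT Lgr5 (1.22 ± 0.50). Btg2 is also counted in the immediate early list. Trp53, which encodes p53, stood at 60.2, 18.7 and 41.2 CPM in Pelo -/- Lgr5, against 16.02, 14.04 and 18.4 CPM in WT Lgr5 (1.31 ± 0.62). Cdkn2c, the p18 inhibitor, was the member below, at 16.1, 6.90 and 8.65 CPM in Pelo -/- Lgr5, against 20.3, 25.9 and 26.9 CPM in WT Lgr5 (-1.21 ± 0.69).

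**Figure D4:**
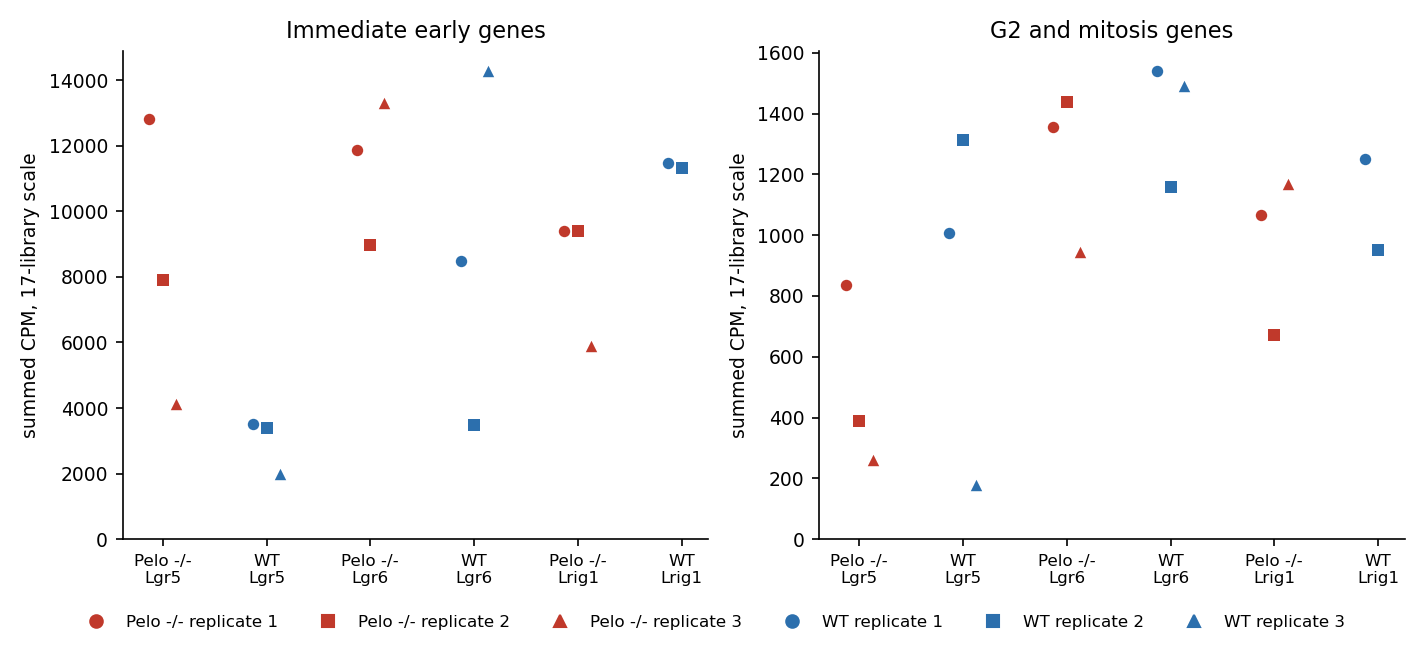
Summed CPM on the 17-library scale of the 30 immediate early genes (left) and the 40 genes of G2 and mitosis (right) in every library, Pelo -/- in red left of WT in blue for Lgr5, Lgr6 and Lrig1 cells. The WT Lgr5 libraries hold 3 of the 4 lowest immediate early sums, at 1998 to 3508 CPM, and WT Lgr5 replicate 3 and Pelo -/- Lgr5 replicates 2 and 3 hold the 3 lowest G2 and mitosis sums.

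Set beside the other populations, the immediate early sums were 4109 to 12830 CPM in Pelo -/- Lgr5 and 1998 to 3508 CPM in WT Lgr5 on the 17-library scale. They were 8987 to 13310 CPM in Pelo -/- Lgr6 and 3495 to 14290 CPM in WT Lgr6, and 5880 to 9401 CPM in Pelo -/- Lrig1 and 11340 to 11490 CPM in WT Lrig1. The median effect of the Pelo genotype on the list was 0.41 in Lgr6 and -0.28 in Lrig1 cells, with 0 members at an unadjusted p under 0.05 in either, where all genes had a median of -0.27 and -0.02. In the test of the difference itself, 6 of 30 members reached an unadjusted p under 0.05 for Lgr5 minus Lgr6 (median 0.89, against 0.25 for all genes) and 15 for Lgr5 minus Lrig1 (median 1.48, against -0.06), where 4.78% and 5.31% of all genes did in either direction. None passed after adjustment over all genes. Without Pelo -/- Lgr5 replicate 1 these counts were 2 and 11 higher (medians 0.57 and 1.06), and with 1 of the other libraries left out they ran from 3 to 12 and from 9 to 19, the lowest being without WT Lgr6 replicate 1 or 3 and without WT Lrig1 replicate 2. For the 40 genes of G2 and mitosis the medians were -0.61 and -0.54, with 0 and 1 at an unadjusted p under 0.05.

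Among the factors of ribosome rescue and of the quality control around it, most overlapped between the groups. Of 29 tested, 20 were higher and 9 lower in value (median 0.39, 0.25 without Pelo -/- replicate 1 and 0.59 without WT replicate 2, against 0.21 for genes with a mean log2 CPM between 4 and 6), and 1 had an unadjusted p under 0.05. Hbs1l, the partner of Pelo, stood at 71.7, 72.4 and 80.6 CPM in Pelo -/- Lgr5, against 32.5, 77.2 and 40.3 CPM in WT Lgr5, with overlapping groups (0.58 ± 0.49). Rchy1, a ubiquitin ligase reported to act on translation-stalled products, stood at 83.7, 65.9 and 126 CPM in Pelo -/- Lgr5, against 13.6, 31.6 and 54.8 CPM in WT Lgr5 (1.46 ± 0.56). Nploc4, an adaptor of the Vcp segregase, stood at 63.5, 31.4 and 35.8 CPM in Pelo -/- Lgr5, against 25.5, 18.9 and 14.7 CPM in WT Lgr5 (1.14 ± 0.58). Gtpbp2, a GTPase of stalled ribosomes, gave 1.04 ± 0.65 with overlapping groups. Nemf, which marks stalled chains on the large subunit, stood at 120, 150 and 152 CPM in Pelo -/- Lgr5, against 171, 209 and 164 CPM in WT Lgr5 (-0.36 ± 0.40). Rchy1, Nploc4, Ufd1 and Tcf25 lay above in all libraries and Nemf below, where 4.32% and 4.35% of all genes did.

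Most genes of the translation machinery were higher in value, as abundant genes were in general, and this depended on single libraries. Of 83 cytosolic ribosomal protein genes, 79 were higher in value (median 0.54, against 0.27 for genes with a mean log2 CPM of 6 or more, -0.05 without Pelo -/- replicate 1 and 0.24 without WT replicate 3) and 2 had an unadjusted p under 0.05, Rpl29 and Rps2 (1.39 ± 0.61). With both of those libraries left out, 13 of the 83 were higher and 70 lower in value (median -0.375). In limma-voom 59 were higher and 24 lower in value (median 0.127). Their sums were 49580, 21750 and 15920 CPM in Pelo -/- Lgr5, against 26880, 22760 and 10120 CPM in WT Lgr5, which overlapped. Of 55 translation factors 36 were higher in value (median 0.22, 0.06 without Pelo -/- replicate 1 and -0.05 without WT replicate 3) with none at an unadjusted p under 0.05. Eef2, the elongation factor that moves the ribosome along, stood at 190, 168 and 137 CPM in Pelo -/- Lgr5, against 105, 102 and 57.5 CPM in WT Lgr5 (0.91 ± 0.43). Eef2k, the kinase that inhibits it, stood at 96.2, 96.6 and 101 CPM in Pelo -/- Lgr5, against 55.9, 64.2 and 17.9 CPM in WT Lgr5 (1.09 ± 0.52, and 0.71 without WT replicate 3). Neither of these factors overlapped between the groups.

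Of 49 genes of the mTOR pathway, which couples nutrients to protein synthesis, 31 were higher and 18 lower in value (median 0.15, 0.06 without Pelo -/- replicate 1 and 0.36 without WT replicate 2), with 2 higher and 1 lower at an unadjusted p under 0.05 (1.65% and 1.47% of all genes). Lamtor5, a part of the lysosomal anchor of mTOR complex 1, stood at 95.4, 95.9 and 16.8 CPM in Pelo -/- Lgr5, against 35.9, 11.3 and 4.68 CPM in WT Lgr5 (2.00 ± 0.79). Of 58 genes of RNA decay 35 were higher in value (median 0.15, 0.05 without Pelo -/- replicate 1, 0.10 without WT replicate 3, 0.49 without WT replicate 2 and -0.03 with upper-quartile factors), no larger a share than the 63.4% of genes at a mean log2 CPM between 4 and 6. In all libraries 5 lay above and none below (4.32% and 4.35% of all genes). Nuclear genes of the respiratory chain were higher in value in 64 of 76 (median 0.53) and the 13 protein genes of the mitochondrial genome in all 13 (median 0.68), with 3 and 0 at an unadjusted p under 0.05. Without Pelo -/- replicate 1 these medians were -0.15 and -0.27, without WT replicate 3 they were 0.20 and 0.37, and the last list followed the mitochondrial share of each library given above. Mitochondrial ribosomal proteins were higher in value in 49 of 76 (median 0.34, -0.02 without Pelo -/- replicate 1, 0.002 without WT replicate 3 and -0.27 without both), with 3 higher and 1 lower at an unadjusted p under 0.05.

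**Figure D5:**
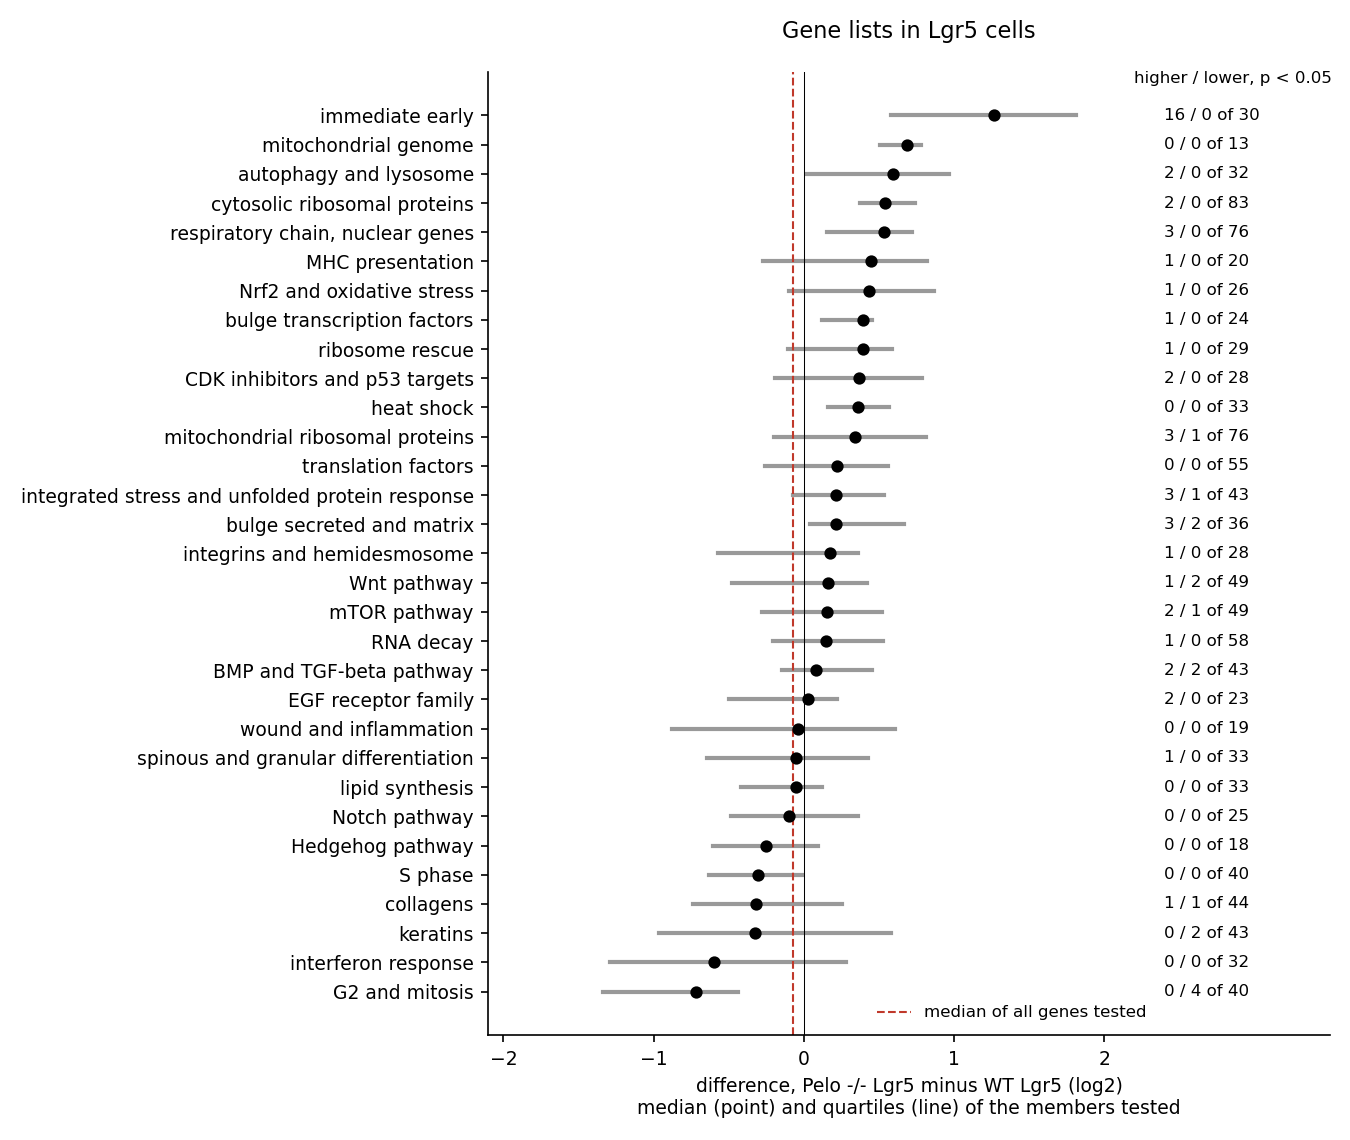
Median (points) and quartiles (lines) of the log2 difference Pelo -/- Lgr5 minus WT Lgr5 over the tested members of each of 31 lists, ordered by median, with the number of members higher and lower at an unadjusted p under 0.05 at the right and the median of all genes, -0.08, as a dashed line. Immediate early genes lie at the top at 1.27 with 16 of 30 higher, G2 and mitosis genes at the bottom at -0.72 with 4 of 40 lower, and no other list has more than 3 in either direction.

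Few genes of the stress responses stood apart. Of 43 genes of the integrated stress and unfolded protein responses, 28 were higher and 14 lower in value (median 0.22, 0.03 without Pelo -/- replicate 1, 0.10 without WT replicate 3, 0.48 without WT replicate 2 and -0.01 with upper-quartile factors), with 3 higher and 1 lower at an unadjusted p under 0.05 (1.65% and 1.47% of all genes). Ppp1r15a, the phosphatase subunit that ends the block on translation initiation, stood at 27.9, 36.8 and 18.3 CPM in Pelo -/- Lgr5, against 0.720, 6.05 and 7.15 CPM in WT Lgr5 (2.57 ± 0.87). Cebpg, a partner of Atf4, stood at 80.3, 81.3 and 97.3 CPM in Pelo -/- Lgr5, against 38.9, 44.7 and 36.9 CPM in WT Lgr5 (1.10 ± 0.45). Sdf2l1, a chaperone cofactor of the endoplasmic reticulum, was the lower one, at 0.334, 0.384 and 0.288 CPM in Pelo -/- Lgr5, against 1.35, 3.67 and 4.09 CPM in WT Lgr5 (-3.14 ± 0.94). Heat shock genes were higher in value in 27 of 33 (median 0.36, 0.10 without Pelo -/- replicate 1, 0.11 without WT replicate 3, -0.15 without both and 0.67 without WT replicate 2), with 0 at an unadjusted p under 0.05.

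Lysosome and autophagy genes were higher in value in 24 of 32 (median 0.59, and 0.33 without Pelo -/- replicate 1), where 63.4% of genes with a mean log2 CPM between 4 and 6 lay above 0 with a median of 0.21. In all 3 libraries 6 lay above and 1 below (4.32% and 4.35% of all genes), and 2 had an unadjusted p under 0.05 (3.12% of all genes). Ctsl, a lysosomal protease needed for normal hair cycling, stood at 332, 366 and 331 CPM in Pelo -/- Lgr5, against 164, 130 and 128 CPM in WT Lgr5 (1.28 ± 0.40, unadjusted p = 0.00631, edgeR adjusted p = 0.988). Its 3 values in each genotype lay close together. Lamp1, a lysosomal membrane protein, stood at 43.8, 70.4 and 26.6 CPM in Pelo -/- Lgr5, against 10.3, 12.9 and 23.8 CPM in WT Lgr5 (1.58 ± 0.62). Ctsd, another lysosomal protease, stood at 47.1, 90.9 and 57.5 CPM in Pelo -/- Lgr5, against 19.5, 33.0 and 40.1 CPM in WT Lgr5 (1.08 ± 0.52). Among 26 tested genes of oxidative stress 18 were higher in value (median 0.43, -0.01 without Pelo -/- replicate 1 and 0.28 without WT replicate 3), with 1 at an unadjusted p under 0.05, the metallothionein Mt1 at 2244, 1200 and 1131 CPM in Pelo -/- Lgr5, against 744, 900 and 321 CPM in WT Lgr5 (1.22 ± 0.51).

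No gene of the stem cell programme passed the test. Of the 19 bulge and lower follicle markers 18 were higher in value, where 85.3% of genes with a mean log2 CPM of 8 or more lay above 0. The median of the markers was 0.38, against 0.37 for genes of that level, and 4 markers lay above in all libraries (4.32% of all genes). Sox9 and Lhx2, transcription factors of the bulge, gave 0.38 ± 0.45 and 0.45 ± 0.46 with overlapping groups. Foxc1, a factor that holds bulge cells at rest, stood at 376, 247 and 314 CPM in Pelo -/- Lgr5, against 235, 199 and 196 CPM in WT Lgr5 (0.57 ± 0.40). Of 24 bulge transcription factors 20 were higher in value (median 0.40, 0.22 without Pelo -/- replicate 1 and 0.17 without WT replicate 3), where 73.0% of genes with a mean log2 CPM between 6 and 8 lay above 0. The 1 factor at an unadjusted p under 0.05 was Id1, a BMP target, at 214, 215 and 131 CPM in Pelo -/- Lgr5, against 120, 86.0 and 60.5 CPM in WT Lgr5 (1.07 ± 0.44).

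Single secreted factors of the bulge stood apart in value in both directions, with 3 higher and 2 lower at an unadjusted p under 0.05 among 36 tested (median 0.21, and 0.55 without WT replicate 2), against 1.65% and 1.47% of all genes. Fgf1, a fibroblast growth factor, stood at 60.8, 68.5 and 86.3 CPM in Pelo -/- Lgr5, against 27.99, 32.0 and 23.4 CPM in WT Lgr5 (1.37 ± 0.48). Sparc, a collagen-binding matrix protein, stood at 255, 301 and 136 CPM in Pelo -/- Lgr5, against 111, 113 and 100.3 CPM in WT Lgr5 (1.09 ± 0.43). Neither overlapped between the groups, and Sparc is also a fibroblast marker. Tgfb2, a ligand known to promote hair germ activation, stood at 6.26, 3.16 and 1.73 CPM in Pelo -/- Lgr5, against 17.3, 15.6 and 14.8 CPM in WT Lgr5 (-2.09 ± 0.84). Bmp6, a ligand that keeps bulge cells at rest, stood at 0.835, 1.53 and 0.793 CPM in Pelo -/- Lgr5, against 1.62, 14.2 and 3.41 CPM in WT Lgr5 (-2.60 ± 1.03, and -1.17 without WT replicate 2).

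Wnt pathway genes went both ways in value. Of 49 tested 31 were higher and 18 lower in value (median 0.16, 0.08 without WT replicate 3, 0.29 without WT replicate 2 and -0.04 with upper-quartile factors), with 1 higher and 2 lower at an unadjusted p under 0.05. Fzd3, a Wnt receptor, stood at 65.0, 50.4 and 48.9 CPM in Pelo -/- Lgr5, against 8.91, 13.4 and 28.9 CPM in WT Lgr5 (1.68 ± 0.60). Rnf43, a ubiquitin ligase that removes Wnt receptors and is itself held back by R-spondin and Lgr5, stood at 4.59, 4.03 and 9.01 CPM in Pelo -/- Lgr5, against 13.2, 31.7 and 18.9 CPM in WT Lgr5 (-1.85 ± 0.77). The groups of both genes stood apart. For Wnt7a, a ligand, the difference (-3.81 ± 1.24) rested on the 24.7 CPM of WT replicate 3, beside 2.43 and 1.28 CPM in the other WT libraries and 0.334 to 1.08 CPM in Pelo -/- Lgr5, and without that library Wnt7a gave -1.46.

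Among 23 tested genes of the EGF receptor family and its regulators, 2 were higher and 0 lower at an unadjusted p under 0.05 (median 0.03, and -0.05 and -0.08 without Pelo -/- replicates 2 and 3). Errfi1, a feedback inhibitor of the receptor, stood at 107, 135 and 319 CPM in Pelo -/- Lgr5, against 49.5, 45.0 and 76.2 CPM in WT Lgr5 (1.72 ± 0.51, and 1.13 without Pelo -/- replicate 3). Hbegf, a ligand of the receptor, stood at 49.1, 13.1 and 16.9 CPM in Pelo -/- Lgr5, against 1.35, 11.9 and 2.73 CPM in WT Lgr5 (2.30 ± 0.93, and 1.48 without Pelo -/- replicate 1). Hedgehog (6 of 18 higher in value), Notch (11 of 25), lipid synthesis (15 of 33), spinous and granular differentiation (15 of 33) and wound genes (8 of 19) gave at most 1 member at an unadjusted p under 0.05, Klf4 among the differentiation genes. BMP and TGF-beta genes were higher in value in 27 of 43 (median 0.08, -0.10 without Pelo -/- replicate 1, 0.007 without WT replicate 1, 0.33 without WT replicate 2 and -0.10 with upper-quartile factors), and integrin and hemidesmosome genes in 17 of 28 (median 0.18, 0.07 without Pelo -/- replicate 1, 0.02 without WT replicate 3 and -0.03 with upper-quartile factors). Keratins were lower in value in 27 of 43 (median -0.33, against -0.53 for genes with a mean log2 CPM under 2) and collagens in 29 of 44 (median -0.32, against -0.05 for genes between 2 and 4), and these medians were 0.23 and 0.04 without WT replicate 3, and -0.14 and -0.05 without Pelo -/- replicate 1. The sums rest mostly on abundant members such as Krt15, Krt5 and Col17a1. The keratins summed to 16760, 11520 and 8522 CPM in Pelo -/- Lgr5, against 8552, 9885 and 6390 CPM in WT Lgr5, and the groups overlapped. The collagens summed to 6115, 6159 and 4690 CPM in Pelo -/- Lgr5, against 3650, 4452 and 4390 CPM in WT Lgr5, with no overlap. Of 20 tested genes of MHC presentation 14 were higher in value (median 0.45, and 0.24 without WT replicate 3), and the 1 at an unadjusted p under 0.05 was H2-T23, a non-classical class I gene, at 127, 121 and 63.3 CPM in Pelo -/- Lgr5, against 48.5, 58.1 and 33.6 CPM in WT Lgr5 (1.15 ± 0.48). Interferon response genes, which were scarce, were lower in value in 21 of 32 (median -0.60, -0.32 without Pelo -/- replicate 1 and -0.17 without WT replicate 3, against -0.53 for genes with a mean log2 CPM under 2).

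Whether Lgr5 cells differed from the other 2 populations in their response was tested as a difference of effects in the fit of 17 libraries. No gene passed for Lgr5 minus Lgr6 or for Lgr5 minus Lrig1 (0 of 30405 each in edgeR), with 1454 (4.78%) and 1613 (5.31%) at an unadjusted p under 0.05. DESeq2 called 56 and 62, and limma-voom 0 and 0. The genes given here were ranked by p among protein-coding genes whose mean log2 CPM over the 17 libraries was 3 or more, leaving out predicted genes, and genes outside these conditions were not ranked. Tm4sf1 came first against Lgr6 (difference 4.57 ± 0.84, adjusted p = 0.159). Its mean was 10.9 CPM in Pelo -/- Lgr5 and 1.06 CPM in WT Lgr5, 17.2 CPM in Pelo -/- Lgr6 and 40.1 CPM in WT Lgr6. Clic3 and Mtrr came first against Lrig1 under the same conditions (4.12 ± 0.78 and 3.74 ± 0.74, adjusted p = 0.151 each). Clic3 averaged 14.7 CPM in Pelo -/- Lgr5 and 1.94 CPM in WT Lgr5, 30.3 CPM in Pelo -/- Lrig1 and 69.9 CPM in WT Lrig1. Cdkn2b, which these conditions left out, gave 5.40 ± 1.15 against Lgr6 and 5.71 ± 1.19 against Lrig1 (edgeR adjusted p = 0.483 and 0.222). In the lower direction Gpt, an alanine aminotransferase, came first against both under these conditions (-2.95 ± 0.63 for Lgr6 and -2.35 ± 0.68 for Lrig1, adjusted p = 0.483 and 0.724). Gpt averaged 2.82 CPM in Pelo -/- Lgr5 and 14.9 CPM in WT Lgr5, against 32.2 to 58.5 CPM as group means in the other populations. For Tm4sf1, Clic3 and Mtrr the WT Lgr5 mean was the lowest of the 6 group means, and for Gpt the Pelo -/- Lgr5 mean was.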

How the data were processed

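Counts of reads per gene were used as deposited, and what the authors did to make them is known only in part. Per the submitters' processing notes, STAR and edgeR and the builds GRCm38 and mm10 were named, with the counting tool, annotation release and strand setting not given in the sources used here. Overlapping and antisense genes, and genes with near-identical copies, can therefore share reads. The table had 48820 identifiers, 48144 of which matched GENCODE M21 (GRCm38) without their version, and 676 kept their identifier. Groups and replicate numbers come from the sample titles.

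The 3 Pelo -/- Lgr5 and 3 WT Lgr5 libraries were fitted in edgeR 4.0.16 (R 4.3.3) by the robust quasi-likelihood test with TMM factors. The filter, filterByExpr by group, asked for at least 15 counts in total. It also asked for the CPM of 10 counts in a library of median size, in as many libraries as the smallest group held. Calls took a Benjamini-Hochberg adjusted p under 0.05 over all genes tested. Each standard error is the absolute log2 fold change divided by the root of the F statistic. CPM values are scaled by TMM over the 6 libraries unless the 17-library scale is named, and intervals or errors cover these libraries only. Differences between populations are contrasts in 1 fit of 17 libraries. The code was tested on simulated data.

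Genes named are Pelo, Hbs1l, Itga1, Lgr5, Lgr6 and Lrig1, the 12 genes of smallest p in each direction (protein-coding, not predicted, mean log2 CPM of at least 3, groups not overlapping), up to 3 members of smallest p of each of 43 lists, and, since no population difference was called, its genes of smallest p under the same conditions on level and symbol, a choice made after the values were seen. Other members of a list (such as Fos, Fosb, Junb, Nr4a1, Dusp1, Zfp36, Egr3, Racgap1, Mki67, Cdkn2c, Nemf, Cebpg, Krt15, Sox9 and Lhx2) were named after their values were seen. Some results are not reported here. The members and lists were chosen with earlier results of these data known. Alternatives were RLE and upper-quartile factors, other filters, DESeq2 1.42.0, limma-voom (limma 3.58.1), a replicate block, the fit of 17 libraries, leaving out each library, and 3 chosen after seeing the data (a sex term, the male-pattern libraries only, and both ends of the first principal component left out). Replicate libraries were compared, and none was a copy of another.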

Additional observations from a re-analysis of the deposited data

How the results depend on the processing

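The count of 0 called genes stayed at 0 under RLE and upper-quartile factors, the mitochondrial, predicted and rRNA genes left out, a minimum mean CPM of 5, limma-voom, the non-robust fit, a sex term, the male-pattern libraries alone, both ends of the first principal component left out, and each library left out in turn. It was 66 with no filter on low counts, of which 25 had a group without a count and 35 overlapped between the groups, 44 in DESeq2 and 6 in the fit of 17 libraries. For the difference Lgr5 minus Lgr6 the count was 28 with no filter and 56 in DESeq2, and for Lgr5 minus Lrig1 25 and 62. With 1 library left out these counts ran from 0 to 3 in both. With the replicate number as a block the counts were 0 for Lgr5 cells, 3 for Lgr5 minus Lgr6 and 0 for Lgr5 minus Lrig1. Same-numbered libraries of the 2 genotypes correlated at 0.04, -0.13 and 0.25 in their deviations, so the numbers were not taken to pair them. Of 86 genes named, 80 kept the sign of their difference in every alternative and 20 were called in at least 1. Pelo was -0.09 with upper-quartile factors and -0.05 with the minimum CPM of 5. Lgr6 was -0.04, -0.03, -0.12, -0.40 and -0.72 with upper-quartile factors, the minimum CPM, limma-voom, the male-pattern libraries and both ends left out. Lrig1 was 0.01 in the male-pattern libraries and Lhx2 -0.13 with both ends left out. With 1 library left out, Pelo ran from -0.08 to 0.54, Lgr6 ran from -0.36 to 0.52, Itga1 ran from -1.53 to 0.68 and Mki67 ran from -1.75 to 0.32. Upper-quartile factors moved the median of all genes to -0.30, against -0.08, and RLE factors moved that of the difference Lgr5 minus Lgr6 to -0.05, against 0.25. Depth limits scarce genes most, and the cause of the other changes was not tested.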

Other observations

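Transcripts other than protein-coding ones differed by class. Of 722 tested loci of the annotation class TEC (transcribed loci awaiting experimental proof), 15 were higher and 46 lower in Pelo -/- Lgr5 at an unadjusted p under 0.05 (8.45%, median log2 fold change -0.39). Long intergenic RNAs had 7 higher and 22 lower of 702 (median -0.44) and antisense RNAs 5 higher and 15 lower of 520 (median -0.52). Processed pseudogenes, copies of abundant messages, had 18 higher and 7 lower of 1437 (median 0.38), beside 279 higher and 196 lower of 16256 protein-coding genes (median -0.07). None of these passed after adjustment in the fit of 6 libraries, and the classes differ in level, with which the difference drifts. Over bins of level the share at an unadjusted p under 0.05 ran from 1.74% to 4.57%, against 8.45% for TEC loci. The part of level and of single libraries in the class differences was not tested.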
